A study of Mus musculus with 9 samples.

Results

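The 10 genes described here are the Notch receptors Notch1, Notch2, Notch3 and Notch4, the ligands Jag1, Jag2, Dll1 and Dll4, and the target genes Hes1 and Hey1. They were chosen by name, and each was found by its symbol among the 55822 gene IDs counted by bulk RNA-Seq of the mouse extrahepatic bile duct (EHBD). All 10 were among the 21299 genes that had at least 10 counts summed over the libraries and were tested. EHBDs were taken 24 hours after surgery from adult WT C57BL/6 mice (C57BL/6J in the methods of the study), 4 of them with sham surgery (2 males and 2 females) and 5 with bile duct ligation, BDL (2 males and 3 females). The abdomen was opened in all 9 mice, and ligation then closed the duct on its intestinal side, which blocks the flow of bile. Each library came from the whole duct of 1 mouse, so it mixes epithelium, vessels, muscle, fibroblasts, leukocytes and any attached pancreas.

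Notch signaling passes between neighboring cells. A Jagged or Delta-like ligand on one cell binds a Notch receptor on the next, the receptor is cut by an ADAM protease and then by γ-secretase, and the freed intracellular domain joins the DNA-binding protein RBPJ and a Mastermind coactivator to switch on Hes and Hey repressor genes. In the biliary tree, JAG1 and NOTCH2 are needed for bile ducts to form, and in humans mutations of either gene cause Alagille syndrome, in which ducts are too few. In vessels, DLL4 and NOTCH4 are known from endothelium, NOTCH3 from smooth muscle and pericytes, and HEY1 from arterial endothelium.

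The promoter of the target gene Hes1 is shown because Hes1 is a member that the intracellular domain and RBPJ act on. The window was 250 bases upstream of the start of the canonical transcript on GRCm39, at chr16:29883877-29884126 on the plus strand, written 5′ to 3′ along the gene. Capitals mark the core letters bound by RBPJ, TGGGAA, searched on both strands.
Hes1: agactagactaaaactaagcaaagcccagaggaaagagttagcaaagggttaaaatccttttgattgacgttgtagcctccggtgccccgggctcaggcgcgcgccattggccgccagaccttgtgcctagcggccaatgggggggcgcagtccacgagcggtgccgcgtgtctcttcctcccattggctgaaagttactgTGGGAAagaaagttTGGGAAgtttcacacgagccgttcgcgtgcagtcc
The Hes1 window held 2 matches on the strand of the gene, at 49 to 44 and at 35 to 30 bases before the start. Among 21576 promoters of protein-coding genes read the same way, 22.8% held at least 1 match and 3.08% held 2 or more. The windows of the 8 receptors and ligands held none, which says only that these letters are not in those windows. The N box CACNAG, which HES proteins can bind, was found 3 times for Hes1, 2 times for Notch3, 1 time each for Notch1, Notch2, Notch4 and Dll4, and in 36.5% of all promoters. The E box CACGTG, a letter string that HEY proteins can bind, was in none of these 9 windows and in 6.3% of all promoters.

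Libraries held 23067967 to 29991945 counts. The exocrine pancreas lies against the duct, and the share taken by 22 genes of its enzyme-making acinar cells was 23.97% to 62.63% in sham libraries and 0.01046% to 3.505% in BDL libraries, so surgery and acinar RNA cannot be told apart in these samples. The level of a gene is its normalized count, the count over the DESeq2 size factor of the library, and these factors ran from 0.434 to 1.17 in sham and from 1.22 to 1.63 in BDL. Summed endothelial markers had 16420 to 26410 normalized counts in sham and 8940 to 14300 after BDL, and summed biliary epithelial markers had 103800 to 159700 in sham and 240900 to 409100 after BDL, with no overlap in either case. Summed mural and smooth muscle markers had 11960 to 29000 in sham and 3619 to 16070 after BDL and overlapped. No marker of these lists, nor of those for leukocytes and fibroblasts, was at 0 throughout a group. In whole tissue, fewer cells of a type and less RNA per cell cannot be told apart. On the second principal component sham replicate 7 (97.2) and BDL replicate 4 (74.2) stood apart from the other 7 libraries (-34.7 to -9.47). Among BDL libraries, replicate 4 had the highest summed epithelial markers (409100, next 278800). It had the lowest summed fibroblast markers (13000, next 48460) and leukocyte markers (4778, next 21900).

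**Figure D1:**
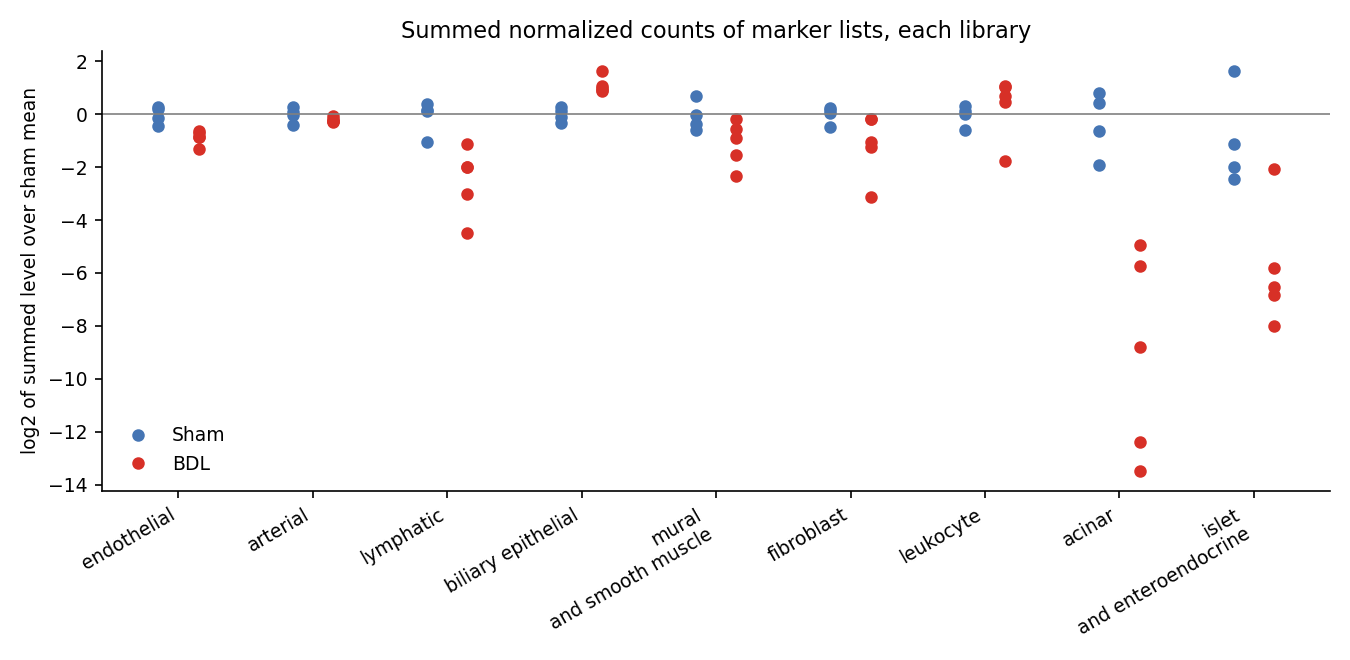
Log2 of the summed normalized counts of each marker list, relative to the sham mean of that list, with 1 point per library (4 sham, 5 BDL). The lowest points are acinar points of BDL, and the acinar and islet points of BDL overlap in range. All 5 epithelial points of BDL lie above those of sham, and all 5 endothelial points lie below.

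After BDL, edgeR's quasi-likelihood test called 4 of the 10 genes at an adjusted p under 0.05. Notch1, Notch3 and Hey1 fell and Dll1 rose, while Notch2, Notch4, Jag1, Jag2, Dll4 and Hes1 did not pass. Of all genes tested, 41.4% were called, 21.4% of them as higher and 19.9% as lower in BDL, each as a share of all genes tested, so the 4 of 10 is near the background and is no result about the set. Groups did not overlap for the same 4 genes, and did not overlap for 38.2% of all genes (19.2% higher and 19.0% lower in BDL). The median log2 fold change of the 10 was 0.14, beside -0.03 over all genes tested. What follows therefore turns on the single genes and on how they differ from one another.

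Among the receptors, Notch1 (chromosome 2 of GRCm39, from 26347915 to 26406675), a receptor of many cell types, fell. In sham replicates 1, 2, 5 and 7 it had 440.0, 506.0, 500.7 and 433.4 normalized counts, and in BDL replicates 3, 4, 6, 8 and 10 it had 310.1, 262.1, 273.3, 218.3 and 261.1. Every BDL library lay below every sham library. The means were 470.0 ± 38.6 (SD, n = 4) and 265.0 ± 32.8 (SD, n = 5), for a log2 fold change of -0.77 (SE 0.14, the standard error of the fit, adjusted p = 0.0016, edgeR), a 1.71-fold lower level.

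Notch3 (chromosome 17, from 32339794 to 32385893), known from smooth muscle and pericytes of vessels, had the steepest fall of the 10. In the same order of libraries it had 159.2, 190.4, 288.4 and 163.7 normalized counts in sham and 35.8, 39.3, 113.0, 79.1 and 84.4 after BDL. The groups did not overlap, although the BDL libraries spread over a wide range, with replicates 3 and 4 lowest. The log2 fold change was -1.498 (SE 0.36, adjusted p = 0.0086, edgeR). Beside it, the mural marker Myh11, a smooth muscle myosin, had a log2 fold change of -2.10 (SE 0.57, adjusted p = 0.0152, edgeR). Pdgfrb, a pericyte receptor, had -0.28 (SE 0.37, adjusted p = 0.578, edgeR). Where 19.9% of all genes fell and 21.4% rose, 5 of 12 mural markers fell and none rose. The part of these cells in the Notch3 value was not tested.

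Notch2 (chromosome 3, from 97920800 to 98057677), the receptor tied to bile duct formation, had 376.6, 375.4, 478.4 and 426.5 normalized counts in sham and 409.4, 441.5, 445.9, 420.8 and 444.7 after BDL. All 5 BDL libraries lay within the sham range. Its log2 fold change of 0.10 (SE 0.12, adjusted p = 0.542, edgeR) did not pass.

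Notch4 (chromosome 17, from 34783220 to 34807477), the endothelial receptor, had 203.7, 223.1, 268.7 and 138.3 normalized counts in sham and 243.7, 203.1, 303.4, 199.3 and 199.9 after BDL. The groups overlapped, with sham replicate 7 lowest and BDL replicate 6 highest. The log2 fold change was 0.18 (SE 0.23, adjusted p = 0.570, edgeR), and without sham replicate 7 it was -0.01 (adjusted p = 0.983).

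**Figure D2:**
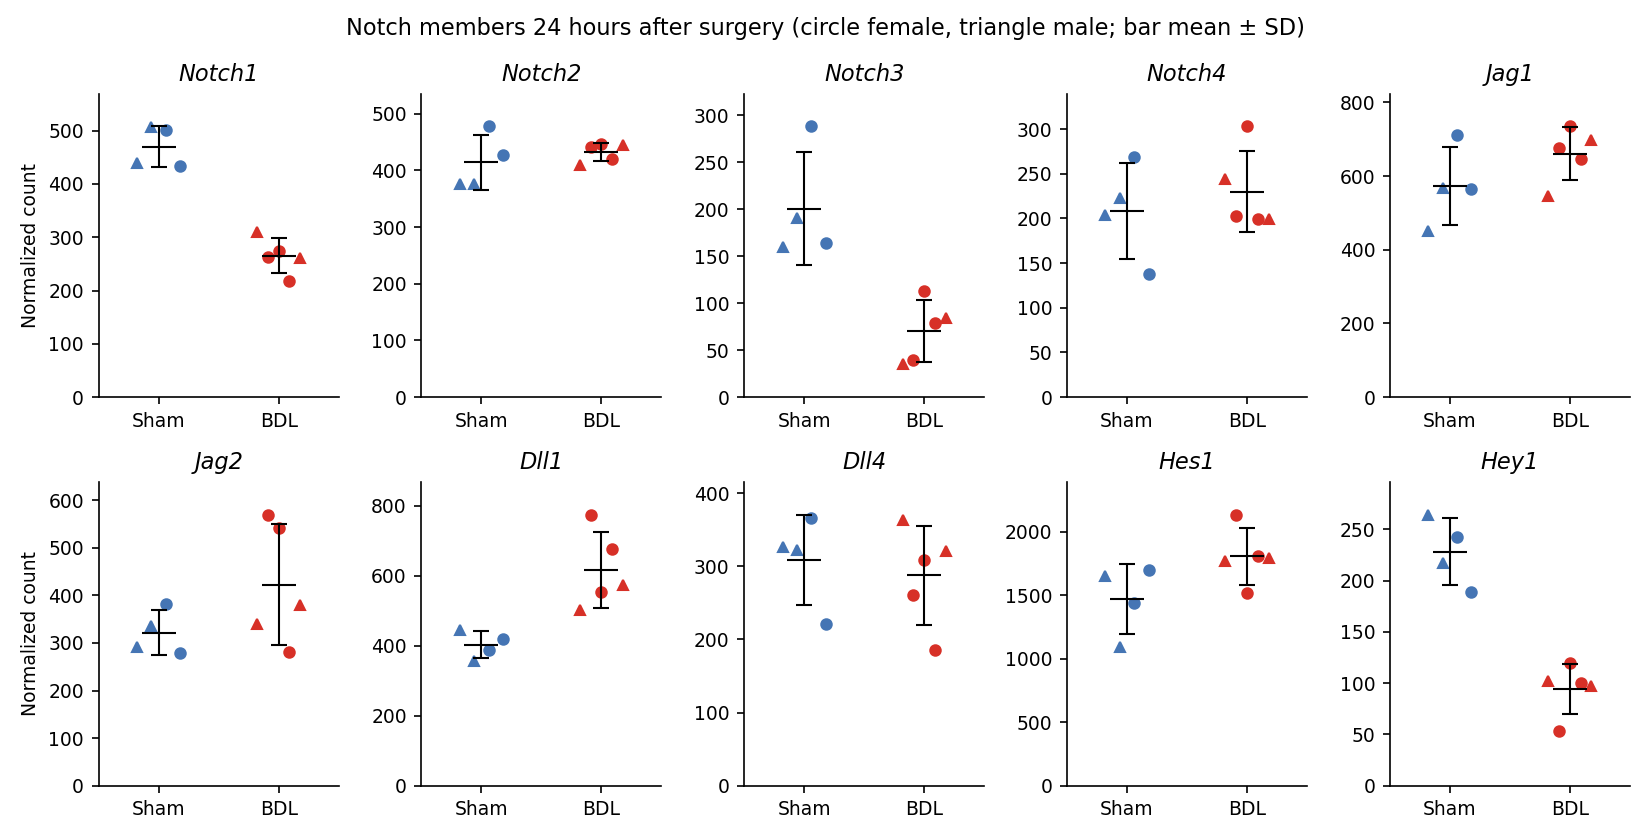
Normalized counts of the 10 genes in each library, with circles for females, triangles for males and bars for mean ± SD of 4 sham and 5 BDL mice, and each axis starting at 0. Sham and BDL points are apart for Notch1, Notch3, Dll1 and Hey1 and overlap for the other 6.

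Of the ligands, only Dll1 passed. Dll1 (chromosome 17, from 15587276 to 15597134), a Delta-like ligand that activates Notch on neighboring cells, had 446.0, 357.3, 386.7 and 419.6 normalized counts in sham and 502.8, 774.8, 552.8, 677.1 and 573.3 after BDL. All BDL libraries exceeded all sham libraries, and BDL replicate 4 was highest. The means were 402.4 ± 38.6 (SD, n = 4) and 616.2 ± 109.1 (SD, n = 5), a 1.55-fold higher level with a log2 fold change of 0.63 (SE 0.15, adjusted p = 0.0085, edgeR). Of the exon bases of Dll1, 34.8% are shared with other genes, mostly with Fam120b, which is coding and lies on the opposite strand. Since no source used here says that counting kept to a strand, how the reads of that stretch were divided is uncertain. Fam120b itself had 1317 to 1535 normalized counts in sham and 1134 to 1451 after BDL, with a log2 fold change of -0.07 (SE 0.10, adjusted p = 0.609, edgeR). The same limit holds for Notch1 and Dll4, which share 14.0% and 15.6% of their exon bases. Their largest overlap was with a noncoding RNA gene on the opposite strand, with mean normalized counts in sham of 21.9 and 18.74.

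Jag1 (chromosome 2, from 136923373 to 136958693), the ligand of the Alagille syndrome pair, had 450.3, 567.7, 710.4 and 564.8 normalized counts in sham and 546.5, 675.7, 735.7, 645.8 and 698.8 after BDL. The groups overlapped, and 4 of the 9 libraries, BDL replicates 4, 6 and 10 with sham replicate 5, were the highest. Its log2 fold change of 0.24 (SE 0.13, adjusted p = 0.187, edgeR) did not pass.

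Jag2 (chromosome 12, from 112871421 to 112893437), the second Jagged ligand, had 291.0, 335.5, 382.7 and 278.9 normalized counts in sham and 339.3, 570.1, 541.8, 281.5 and 379.6 after BDL. BDL replicates 4 and 6 were higher than all other libraries, while BDL replicates 3, 8 and 10 were within the sham range. The log2 fold change was 0.40 (SE 0.22, adjusted p = 0.179, edgeR), and it passed without BDL replicate 8 (0.52, adjusted p = 0.0414). With the acinar level as a term in the fit its sign turned (-0.42, adjusted p = 0.418), and it was 0.21 without sham replicate 7 and BDL replicate 4.

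Dll4 (chromosome 2, from 119156170 to 119166443), the ligand of endothelial tip cells and arteries, had 327.0, 322.8, 365.7 and 221.3 normalized counts in sham and 363.4, 261.3, 308.2, 185.8 and 321.5 after BDL. The ranges nearly coincided. The log2 fold change was -0.05 (SE 0.20, adjusted p = 0.882, edgeR), and it was 0.16 without sham replicate 5 and 0.06 without BDL replicate 8, neither of which passed.

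Of the targets, Hey1 (chromosome 3, from 8726956 to 8732385), a transcriptional repressor known from arterial endothelium, fell. It had 264.5, 217.6, 242.5 and 189.0 normalized counts in sham and 102.2, 53.24, 119.2, 99.97 and 96.84 after BDL. The lowest sham library stood well above the highest BDL library, and BDL replicate 4 was lowest of all. The means were 228.4 ± 32.5 (SD, n = 4) and 94.3 ± 24.5 (SD, n = 5), for a log2 fold change of -1.22 (SE 0.25, adjusted p = 0.0035, edgeR), a 2.33-fold lower level.

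Hes1 (chromosome 16, from 29882134 to 29886643), the repressor without which pancreatic tissue forms in the bile duct of mouse embryos, had 1648, 1090, 1439 and 1694 normalized counts in sham and 1770, 2134, 1513, 1810 and 1792 after BDL. Sham replicate 2 was lowest and BDL replicate 4 highest, and the groups overlapped at BDL replicate 6. The log2 fold change of 0.33 (SE 0.15, adjusted p = 0.113, edgeR) did not pass with all libraries, and it passed without sham replicate 1 (0.45, adjusted p = 0.0471). The ratio of Hes1 to Hey1 normalized counts was 5.01 to 8.96 in sham and 12.7 to 40.1 after BDL, without overlap. The 40.1 was BDL replicate 4, and the next highest value was 18.5, in BDL replicate 10. This is a description without a test. Hey1 alone already separated the groups, so the ratio is no result beside its fall. The same libraries gave a ratio of 0.595 to 0.933 in sham and 2.80 to 5.38 after BDL for Nrarp, a feedback inhibitor that Notch switches on, over Hey1. Since Nrarp rose and Hey1 fell, each without overlap, this ratio had to separate the groups and adds no result.

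With the acinar level added as a term to the edgeR fit, none of the 10 passed (3 had an unadjusted p under 0.05), and 9.01% of all genes tested did. The adjusted p was then 0.0952 for Notch1, 0.143 for Notch3, 0.166 for Hey1 and 0.283 for Dll1, at log2 fold changes of -0.84, -1.89, -1.17 and 0.51. The acinar term and surgery nearly coincide in these libraries, and the size of these values can be read but the part of each cannot be told apart. With sham replicates 1 and 5 alone, the sham libraries of lowest acinar share, Notch1, Notch3 and Hey1 passed and Dll1 did not (0.57, adjusted p = 0.0764, edgeR). Without the pair of libraries that stood apart, sham replicate 7 and BDL replicate 4, the same 4 genes passed in the same directions.

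To set the members against the 2 tissues in which they are best known, the fit was repeated with library sizes set by endothelial markers and by biliary epithelial markers. Such a scaling moves every gene together, so each value is read against the median of all genes. Scaled to the 16 endothelial markers, that median was 0.79 on the log2 scale, 47.8% of all genes were called, 40.3% as higher and 7.46% as lower, and 7 of the 10 members were higher and 0 lower. Scaled to the 14 epithelial markers, the median was -0.97, 51.8% were called, 4.53% as higher and 47.3% as lower, and 0 members were higher and 7 lower. Without sham replicate 5 only 3 members, Notch1, Notch3 and Hey1, were lower on the epithelial scale.

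Per endothelial marker RNA, Notch1 had a log2 fold change of 0.08 (SE 0.28, adjusted p = 0.831, edgeR), and this turned to -0.02 without BDL replicate 3 and to -0.06 without BDL replicate 4. Hey1 had -0.42 (SE 0.29, adjusted p = 0.248) and Notch3 -0.70 (SE 0.33, adjusted p = 0.0856). None of the 3 genes that fell in whole tissue passed on this scale, which moves all genes up by 0.79. Against the median of all genes they lay as far down as under TMM, Notch1 at -0.71 beside -0.74, Hey1 at -1.22 beside -1.19 and Notch3 at -1.5 beside -1.47. A shift common to all genes leaves this distance nearly unchanged, so it is no second result. Under TMM the 16 endothelial markers had a median log2 fold change of -0.79. Of them 10 were lower and 1 higher, where 19.9% of all genes were lower and 21.4% higher. Scaled to themselves they had a median of 0.06. The endothelial pair was higher on this scale, Notch4 with 1.05 (SE 0.28, adjusted p = 0.0060, edgeR) and Dll4 with 0.83 (SE 0.29, adjusted p = 0.0245). Both lay near the shift of all genes, and Dll4 did not pass without sham replicate 1 (adjusted p = 0.0509), sham replicate 2 (0.0814) or BDL replicate 3 (0.0869). Being higher on this scale was not particular to the pair. Dll1 (1.47), Jag2 (1.28), Hes1 (1.17), Jag1 (1.08) and Notch2 (0.94) were called higher on it too.

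Per epithelial marker RNA, Notch2 had a log2 fold change of -0.86 (SE 0.26, adjusted p = 0.0150, edgeR), Jag1 of -0.74 (SE 0.27, adjusted p = 0.0398) and Hes1 of -0.61 (SE 0.20, adjusted p = 0.0216). These 3 genes, known from biliary epithelium, were lower by less than the median of all genes on this scale, a gap that was not tested. The same held for the endothelial receptor Notch4 (-0.80), for Jag2 (-0.59) and for Dll1, so it was not particular to the 3. Notch4 and Jag2 did not pass on this scale (adjusted p = 0.0729 and 0.105, edgeR). Jag1 did not pass in 6 of the 9 fits with 1 library left out, namely sham replicates 2 and 5 and BDL replicates 3, 4, 6 and 8 (adjusted p from 0.0552 to 0.186). Hes1 did not pass without sham replicate 5, sham replicate 7 or BDL replicate 6 (adjusted p from 0.0513 to 0.0661), nor without sham replicate 7 and BDL replicate 4 together (-0.54, adjusted p = 0.0565). Notch2 did not pass without sham replicate 5 (-0.61, adjusted p = 0.0618). Dll1 had -0.31 (SE 0.21, adjusted p = 0.217) and was the only called member of the whole-tissue fit that did not pass here.

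Read against the median of all genes, the members kept their order under TMM, endothelial, epithelial and library-total scaling, as a common shift makes likely. Notch3 lay 1.47 to 1.5 log2 units below the median of all genes, Hey1 1.17 to 1.22 below and Notch1 0.71 to 0.78 below. Dll1 lay 0.65 to 0.68 above it, Jag2 0.38 to 0.49 above and Hes1 0.34 to 0.37 above. Scaled to library totals, in which acinar RNA counts in full, the median of all genes was 0.89, and Notch1 had a log2 fold change of 0.16 (adjusted p = 0.754, edgeR) and Dll4 of 0.83 (adjusted p = 0.0932), with signs opposite to those under TMM. On that scale 6 members were called higher (Notch2, Notch4, Jag1, Jag2, Dll1 and Hes1) and 0 lower, against 38.3% and 5.38% of all genes (43.6% either way).

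**Figure D3:**
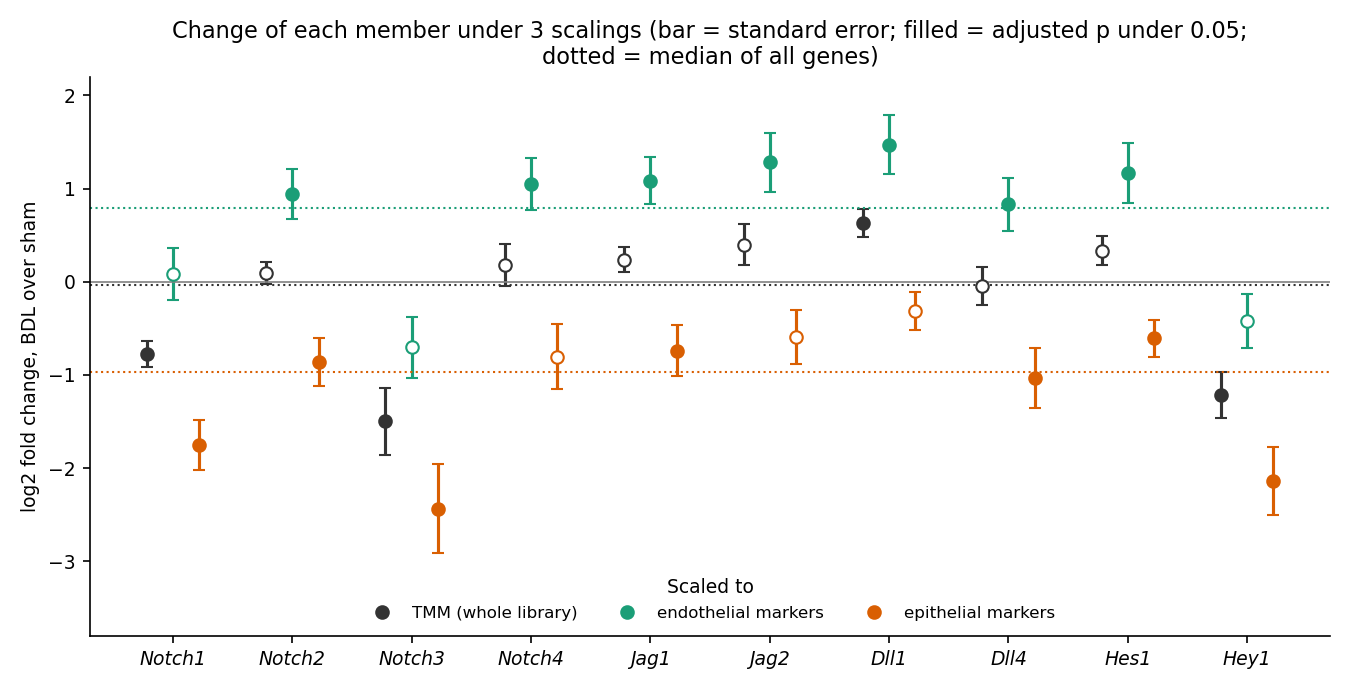
Log2 fold change of BDL over sham for each member with its standard error, scaled by TMM, by endothelial markers and by epithelial markers, with filled points at an adjusted p under 0.05 and dotted lines at the median of all genes (-0.03, 0.79 and -0.97). Notch3, Hey1 and Notch1 lie well below the dotted line of each scale, Dll4 lies on or near it, and Dll1 lies highest.

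The members were then compared with each other as normalized counts per kb of the canonical transcript. Hes1 was by far the most abundant, at 960.6 ± 180.1 (SD, n = 4) per kb in sham and 1180 ± 144.4 (SD, n = 5) after BDL. In sham it was followed by Jag1 (99.8), Dll1 (98.9), Dll4 (80.5), Jag2 (62.4), Hey1 (58.8), Notch1 (49.5), Notch2 (39.3), Notch4 (31.5) and Notch3 (24.8), as mean normalized counts per kb. The 4 ligands thus stood above the 4 receptors in the means of sham ducts. Of neighbors in this order, only Hes1 and Jag1, and Notch1 and Notch2, had ranges that did not overlap.

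After BDL the order was Hes1, Dll1 (151.4), Jag1 (115.0), Jag2 (81.8), Dll4 (75.0), Notch2 (41.0), Notch4 (34.8), Notch1 (27.9), Hey1 (24.3) and Notch3 (8.70). Notch2 took the first place among receptors from Notch1, and Hey1 went from the 6th to the 9th place of 10. Of neighbors, only Hes1 and Dll1, and Dll4 and Notch2, had ranges that did not overlap. The per-kb ratio of Notch2 to Notch3 was 1.27 to 2.0 in sham and 3.02 to 8.77 after BDL, with no overlap. Notch3 alone already separated the groups and Notch2 did not pass, so this ratio restates the fall of Notch3. The per-kb ratio of Dll1 to Jag1 was 0.768 to 1.40 in sham and 1.06 to 1.62 after BDL, with overlap. With merged exon length in place of transcript length, 6 of the 10 genes kept their place in the sham order, and Notch1 (33.03 per kb) then came after Notch2 (36.8 per kb).

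**Figure D4:**
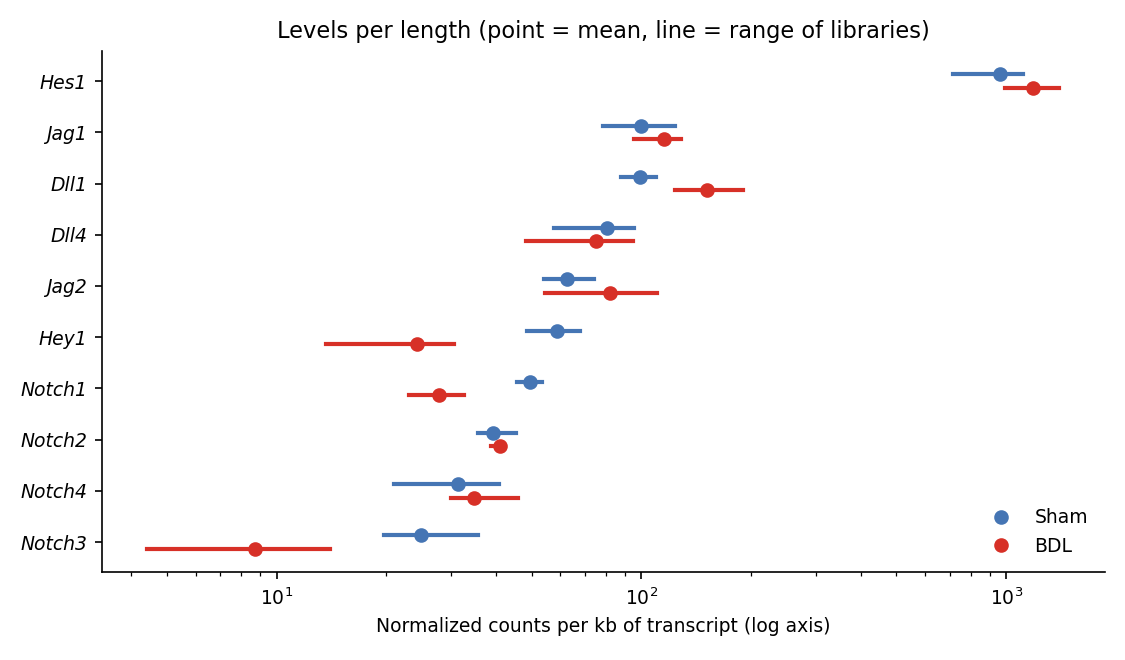
Mean normalized counts per kb of transcript for each gene (points) with the range over 4 sham and 5 BDL libraries (lines), on a log axis and sorted by the sham mean. Hes1 stands apart at the top, the ligands come next, and Notch3 is lowest in both groups.

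Which cell markers each member followed across the 9 libraries was measured as the root mean square difference of log2 profiles after each gene's mean was subtracted, where a smaller value is a closer profile. These values share libraries and the contrast itself and are a description only. Hey1 had a median difference of 0.405 from endothelial markers and 1.22 from epithelial markers, and Notch1 had 0.40 and 0.921. Notch3 had 0.588 from endothelial, 0.618 from mural and 1.43 from epithelial markers. Dll4 (0.474 and 0.690) and Notch4 (0.548 and 0.658) were closer to endothelial than to epithelial markers.

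The reverse held for Dll1, at 0.481 from epithelial and 0.869 from endothelial markers, for Hes1 (0.508 and 0.779) and for Jag2 (0.581 and 0.742), and Notch2 (0.580 and 0.589) and Jag1 (0.621 and 0.642) lay at like distances from both. Among the 100 nearest of 13015 genes, Notch3 had the endothelial genes Kdr, Tek, Tie1 and Ptprb and the smooth muscle gene Tagln, Dll4 had Egfl7 and Emcn, Hey1 had Tie1 and the arterial gene Sema3g, Notch1 had Flt1, and Dll1 had the epithelial cadherin gene Cdh1. No other marker of the 9 lists was among the 100 nearest of any member. The nearest genes included Cry2, Vwf and Gbp9 for Notch3, St6galnac3, Acvrl1 and Tap2 for Hey1, Epn2, Zfp512b and D130017N08Rik for Dll4, and Sclt1, Lima1 and Ercc3 for Dll1. The 3 nearest were Syf2, Selenoo and Lmbrd1 for Notch1, Ldah, Stx17 and Zbtb9 for Notch2, Rtn4, Pgm1 and Gm49708 for Notch4, Dhx36, Utp25 and Stx17 for Jag1, Tbc1d24, Pdgfb and Platr25 for Jag2, and Slc4a2, Galnt4 and Taok3 for Hes1. When each profile was divided by its SD, 12 of these 30 nearest genes stayed.

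The sexes were compared by the interaction of sex and surgery. None of the 10 passed, and neither did any of the 21299 genes in edgeR, of which 544 (2.55%) had an unadjusted p under 0.05, while DESeq2 called 5 of 21191 (0.0236%). DESeq2 called none of the 10 either. The smallest unadjusted p of a member in edgeR was 0.332, for Dll1, with an interaction of -0.31 on the log2 scale for males over females. With 2 males and 2 or 3 females a group, such differences have wide errors.

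The wider pathway was read from 52 other genes in 7 lists by role. Of the 49 tested, 5 rose and 17 fell, which is 44.9% called. Of all genes 41.4% were called, 21.4% as higher and 19.9% as lower. The median log2 fold change of the 49 was -0.22. Of 3 other ligands tested, Dlk1, a noncanonical ligand, fell (-3.72, SE 0.60, adjusted p = 0.00099, edgeR) and so did Dner (-2.12, adjusted p = 0.0471). Dlk2 was at 0 in all sham libraries and at 0 to 4.10 normalized counts after BDL. Of 6 genes for ligand ubiquitination and endocytosis, which arm ligands to pull on the receptor, Neurl1b rose (1.18, SE 0.26, adjusted p = 0.0051) and Mib2 fell (-1.11, SE 0.13, adjusted p = 0.00022).

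Of 6 genes for receptor glycosylation and maturation, Furin, the protease that cuts the receptor on its way to the surface, rose (0.66, adjusted p = 0.0094, edgeR), and the Fringe gene Mfng had -1.10 (adjusted p = 0.0477). Of 8 genes for receptor cleavage, 2 rose and 3 fell. Those that rose were Aph1a, a γ-secretase subunit (0.43), and the ADAM protease gene Adam17 (0.37), and those that fell were Aph1c (-1.72) and Aph1b (-0.71), paralogs of Aph1a, and the γ-secretase gene Psen2 (-0.79), given as log2 fold changes with adjusted p from 0.00065 for Aph1c to 0.0177 for Adam17 (edgeR). Aph1b and Aph1c are close copies, and reads may be divided between them in ways that cannot be checked here. Of 10 genes for receptor turnover, Dtx1, a Deltex ubiquitin ligase, fell from 351.0, 457.0, 390.6 and 415.0 normalized counts in sham to 46.7, 7.37, 39.7, 49.1 and 71.3 after BDL (-3.19, SE 0.45, adjusted p = 0.00046), and Dtx3 fell (-1.05). The other 8 turnover genes, among them Dtx2, Dtx3l and Dtx4, did not pass.

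Where 19.9% of all genes fell and 21.4% rose, 5 of 10 genes of the nuclear complex fell and none rose. They were the Mastermind coactivators Maml2 (-1.10) and Maml3 (-0.84), Kat2b, a histone acetyltransferase (-0.89), Cir1, an RBPJ corepressor (-0.99), and Rbpjl (-5.73). Rbpjl is the RBPJ-like subunit of the acinar transcription factor PTF1, and its 331.3, 740.0, 706.5 and 2017 normalized counts in sham were lowest and highest in the libraries of lowest and highest acinar share. With the acinar level as a term its log2 fold change was -0.18 (adjusted p = 0.993, edgeR). Without that term it was -5.10 without sham replicate 7, -6.94 without BDL replicate 3 and -6.42 without BDL replicate 8. Rbpj itself had a log2 fold change of 0.03 (SE 0.20, adjusted p = 0.933, edgeR). Maml2 and Maml3 lie outside the rule for naming and were named after their values were seen.

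Of 6 other HES, HEY and feedback genes tested, Nrarp rose and Hey2, Heyl and Hes7 fell. Nrarp had 157.5, 203.1, 194.0 and 172.9 normalized counts in sham and 394.0, 286.7, 333.6, 493.7 and 440.0 after BDL. The groups did not overlap, and the log2 fold change was 1.15 (SE 0.20, adjusted p = 0.0013, edgeR). Hey2, a partner of Hey1 in arteries, had 47.1 to 92.5 normalized counts in sham and 8.76 to 37.4 after BDL (-1.54, SE 0.45, adjusted p = 0.0212), and Heyl, known from vascular smooth muscle, had 224.3 to 440.4 and 47.5 to 216.5 (-1.12, SE 0.38, adjusted p = 0.0405). The difference between the Hey genes and Hes1 was not tested. Hes7 had 3.93 to 20.8 normalized counts in sham and 0.775 to 3.65 after BDL (-2.44, adjusted p = 0.0326), and Hes3 was at 0 in every library.

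Several of these calls lay near the threshold. With 1 library left out at a time, the call ended in 8 of 9 fits for Mfng (all but sham replicate 7) and in 7 for Dner (all but BDL replicates 6 and 8). It ended in 6 for Hes7 (sham replicates 2 and 7, BDL replicates 4, 6, 8 and 10), 5 for Heyl (each sham library and BDL replicate 3) and 2 each for Hey2 (sham replicate 2 or BDL replicate 3) and Adam17 (sham replicate 5 or 7). Adjusted p lay between 0.0504 and 0.30 in these fits (edgeR), at log2 fold changes of -2.26 to -1.99 for Dner, -1.16 to -1.0 for Heyl, 0.34 for Adam17, -1.21 to -0.66 for Mfng, where -0.66 was without sham replicate 5, and -2.44 to -1.72 for Hes7, where -1.72 was without sham replicate 7. Without sham replicate 7 and BDL replicate 4 together, 4 of the wider genes rose and 17 fell. With the acinar term 4 of the 49 tested passed, beside 9.01% of all genes. Nrarp kept its call in every alternative fit of whole tissue (adjusted p up to 0.0185).

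**Figure D5:**
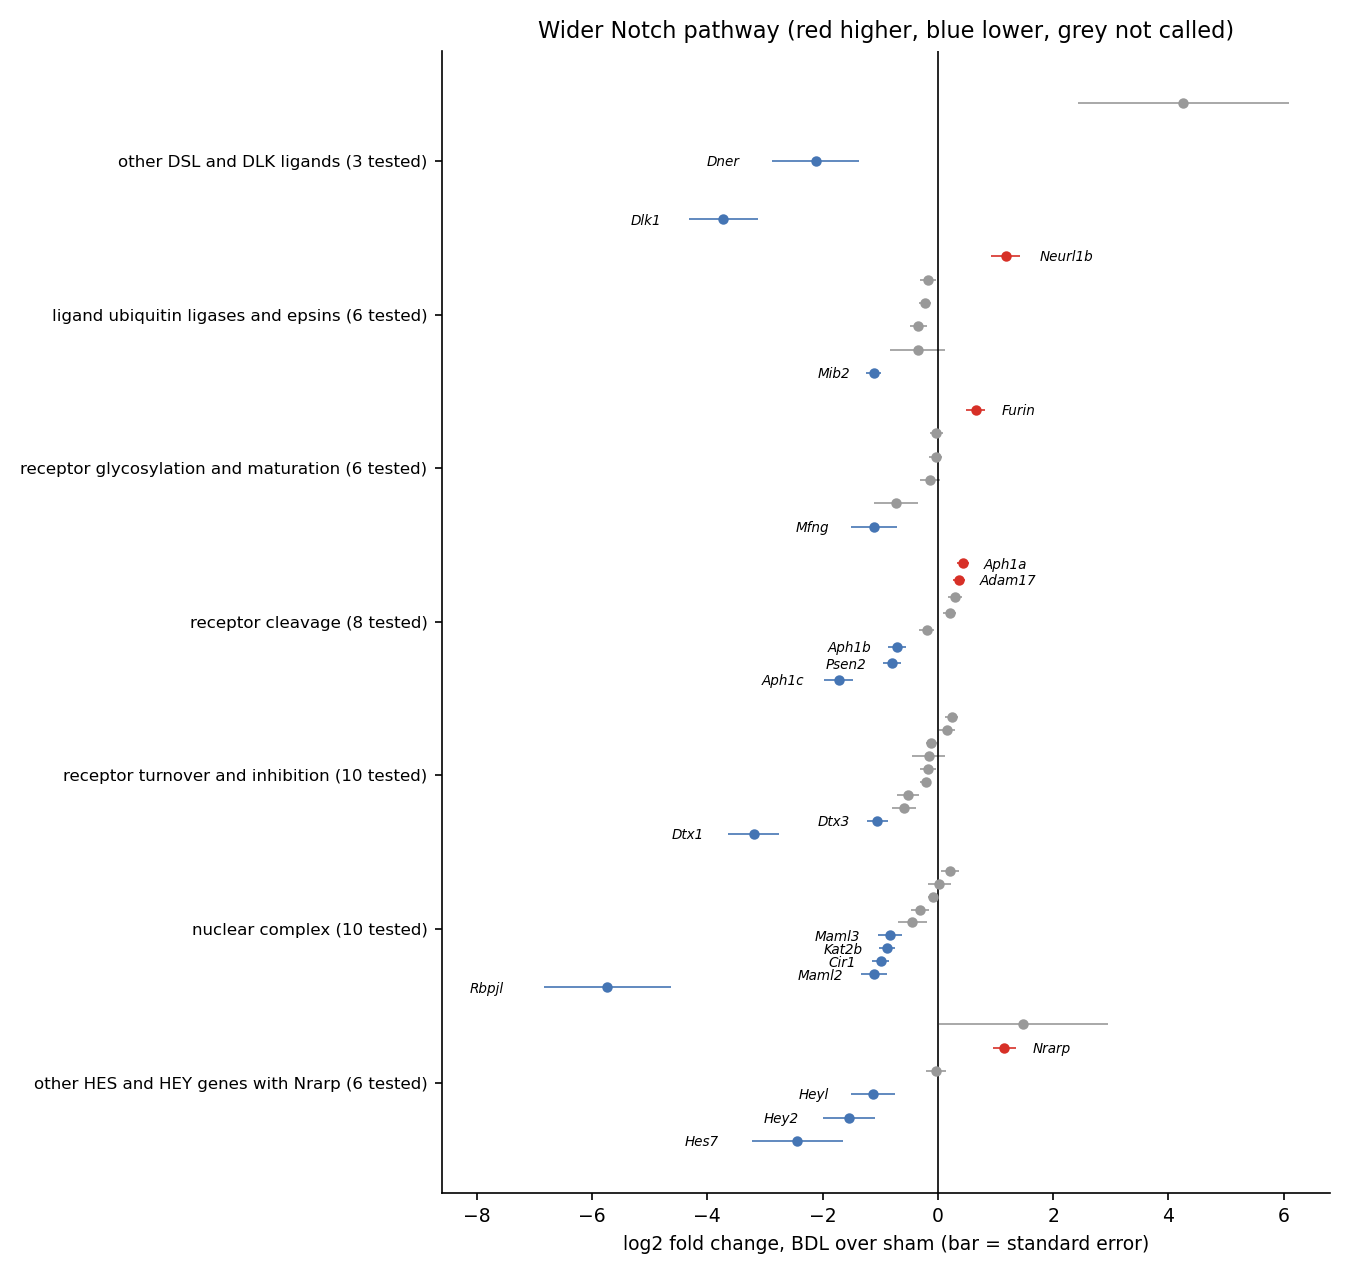
Log2 fold change of BDL over sham for the 49 tested genes of the 7 wider Notch lists, with standard errors, red for genes called higher, blue for lower and grey for not called. The 5 red points are Neurl1b, Furin, Aph1a, Adam17 and Nrarp, and the nuclear complex and turnover lists hold only blue and grey points, and the grey point farthest to the right is Dlk2, whose fitted value against sham libraries at 0 is no bound.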

How the data were processed

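RNA of whole EHBDs (4 ng) went into SMART-Seq mRNA libraries, read in pairs of 151 bp. Salmon was run by the authors on trimmed reads against Gencode M33 (GRCm39), with sums per gene from tximeta. They deposited whole-number estimated counts with no normalization, so transcript-length offsets were not used. Surgery came from the labels, and sex from the deposited sample sheet.

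Genes with at least 10 counts over the libraries were fitted with edgeR 4.0.16 (quasi-likelihood, TMM, sex and surgery as terms, R 4.3.3), adjusted by Benjamini-Hochberg and called under 0.05. Standard errors are the log2 fold change over the root of F. DESeq2 1.42.0, other scalings and filters, no sex term, an acinar term and single libraries left out were alternatives. Scaling to library totals, and leaving out the pair of libraries that stood apart, were added after the data were seen. Marker scalings set library size by the geometric mean of the list. Likeness used log2(normalized count + 1) of genes with a mean of at least 50. Positions are from Gencode M39, which held 55261 of 55822 IDs, and promoters are from its genome. The edgeR fit was tested on simulated data in which a small part of the genes changed, up and down alike. The simulation held no acinar difference between groups, so it does not check the fit under that difference.

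The members and lists were chosen with earlier results of these data known. Named genes were all members, up to 3 called genes of smallest p each way and any at 0 in a group from each wider list, fixed markers, and the 3 nearest genes of each member. Replicates are separate mice. Some genes and sequences that these rules would name are not reported here.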

Additional observations from a re-analysis of the deposited data

How the results depend on the processing

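The count of members called was 4 under DESeq2, RLE, upper-quartile scaling, TMM without abundant genes, both other filters, no sex term and without the pair of libraries that stood apart, 3 with sham replicates 1 and 5 alone, 6 under library totals and 0 with the acinar term. With 1 library left out it was 4 to 5. Over all genes, 8810 were called (4565 higher, 4245 lower), 1919 with the acinar term, 7176 to 8746 with 1 library left out, 8839 under upper-quartile scaling (3712 higher, 5127 lower) and 9295 under library totals (8150 higher, 1145 lower). Of the wider genes 22 were called, 4 with the acinar term, 17 with sham replicates 1 and 5 alone, 17 to 21 with 1 library left out and 20 under library totals (17 higher, 3 lower). With 1 library left out, 6 to 7 members were called on the endothelial scale and 3 to 7 on the epithelial scale, and 9 on the latter with summed markers. Signs turned for Notch2 under upper-quartile scaling (-0.05), for Notch4 (-0.09) and Jag2 (-0.42) with the acinar term, for Notch4 without sham replicate 7 (-0.01) and with sham replicates 1 and 5 alone (-0.01), and for Dll4 without sham replicate 5 (0.16) or BDL replicate 8 (0.06). With 1 library left out, Notch4 ran from -0.01 to 0.38 and Dll4 from -0.15 to 0.16. On the endothelial scale Notch1 turned without BDL replicate 3 (-0.02) or 4 (-0.06), in a range of -0.06 to 0.19. Under library totals Notch1 (0.16), Dll4 (0.83), Psen2 (0.21), Aph1b (0.15) and Kat2b (0.06) turned, as all genes moved up by 0.89 on the log2 scale. The causes of the other turns were not tested. Of the 10 places in the sham order, 6 stayed with merged exon length and 8 with CPM, and 12 of the 30 nearest genes stayed when profiles were divided by their SD. No paired analysis was run, because the labels used here give no litter or pair for a mouse. The study reports littermate controls where these could be had. The members had 48 to 2951 counts per library, and how much of their spread is counting error was not tested.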
